A study of Homo sapiens with 4 samples.

Results

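The TAL1 complex and its E-protein partners, read here as 7 genes (TAL1, LYL1, LMO2, LDB1, TCF3, TCF4 and TCF12) of the 17630 analysed, were followed from human embryonic stem cells to blood progenitors. The members were taken by gene symbol, and all 7 were found in each of 4 tables. H1 is an established human embryonic stem cell line. Its undifferentiated cells (hESC) were compared with APLNR+ mesoderm-stage cells (MES) on day 2, CD31+CD34+ cells (HEP) on day 4 and CD31+CD43+ cells (HPC) on day 7, the last 3 sorted by flow cytometry. All 3 sorted populations had received activin A at 40 ng/ml and BMP4 at 50 ng/ml for 2 days. HEP and HPC had then received VEGF at 40 ng/ml and bFGF at 50 ng/ml for 2 days, and HPC had stayed 3 more days in both with SB-431542 added, which blocks TGF-beta type I receptors of the activin and NODAL branch.

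TAL1 (also called SCL) and LYL1 are closely related basic helix-loop-helix (bHLH) factors of the tissue-restricted class II. They bind E-box DNA only as a pair with a widely expressed class I factor, an E-protein, encoded by TCF3, TCF4 or TCF12. LMO2 is a LIM-domain adaptor without DNA binding of its own that links the bHLH pair to LDB1, which can self-associate, and to a GATA factor. The complex is required for the first blood cells of the embryo and takes part in early endothelium. The rows named TCF3 and TCF4 are the E-protein genes: the WNT effectors that have shared these names have rows of their own, TCF7L1 (1.92, 0.72, 0.46 and 0.10 in hESC, MES, HEP and HPC) and TCF7L2 (0.46 to 0.80).

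Since there was 1 library of each population, the values carry no replicate error, the differences have no replicate check and no test was run. The values are normalised expression levels, treated as per transcript length, and differences were taken as log2 of (value + 1), which makes the changes of low genes look smaller than they are. To be called higher or lower, a gene had to differ by 1 or more on this scale and reach 5 in either library. Values summed to between 306724 and 426980 per library, the sequencing depth is unknown, and 5191 to 6655 genes stood at 5 or more. From MES to HEP the differences followed the GC content of transcripts (Spearman rho 0.71 over 6366 genes). Values with each library's GC trend divided out are therefore given where they matter. The removal was incomplete, with a rho of 0.13 left from MES to HEP and -0.099 from HEP to HPC. Each rho is a description, since genes do not replicate each other.

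The populations were read against their markers. In the order hESC, MES, HEP and HPC, the 6 pluripotency markers summed to 2150, 782, 133 and 28.3. Endothelial markers (8 genes) summed to 65.7, 87.3, 634 and 258, erythroid markers (8 genes) to 0.55, 8.48, 12.6 and 556, and megakaryocyte markers (6 genes) to 2.77, 1.34, 6.80 and 333. Myeloid markers (6 genes) summed to 0.47, 0.79, 1.27 and 27.45. Neural markers (6 genes) summed to 159.5, 64.3, 93.6 and 14.1, nearly all of it TUBB3 (93.0 in HEP). The lymphoid markers (7 genes) never summed to more than 2.13, with IL7R and PAX5 listed at 0 in every library. PECAM1, which encodes the sort antigen CD31, was low in both populations sorted for it (1.83 in HEP and 7.49 in HPC). The other sort antigens were high in theirs, APLNR at 344 in MES, CD34 at 43.6 in HEP and SPN, which encodes CD43, at 24.4 in HPC. In bulk RNA, more cells of a type and more RNA per cell cannot be told apart.

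TAL1, LYL1 and LMO2 were high in the populations of days 4 and 7 and low in the other two. TAL1 stood at 0.05 in hESC and 0.08 in MES, then at 50.4 in HEP and 43.2 in HPC. LMO2 stood at 0.84, 0.35, 56.0 and 81.5 in the same order. LYL1 stood at 0.39, 1.27, 38.1 and 56.5. All 3 were thus at 1.27 or lower in the first 2 populations and at 38.1 or higher in the last 2, where TAL1 ranked 874 in HEP and 972 in HPC among 17630 genes, LMO2 787 and 516, and LYL1 1116 and 732. TAL1 was 1.33 times LYL1 in HEP and 0.764 times in HPC. With the GC trend divided out these ratios were 1.74 and 0.797, and LYL1 stood at 29.9 in HEP.

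**Figure D1:**
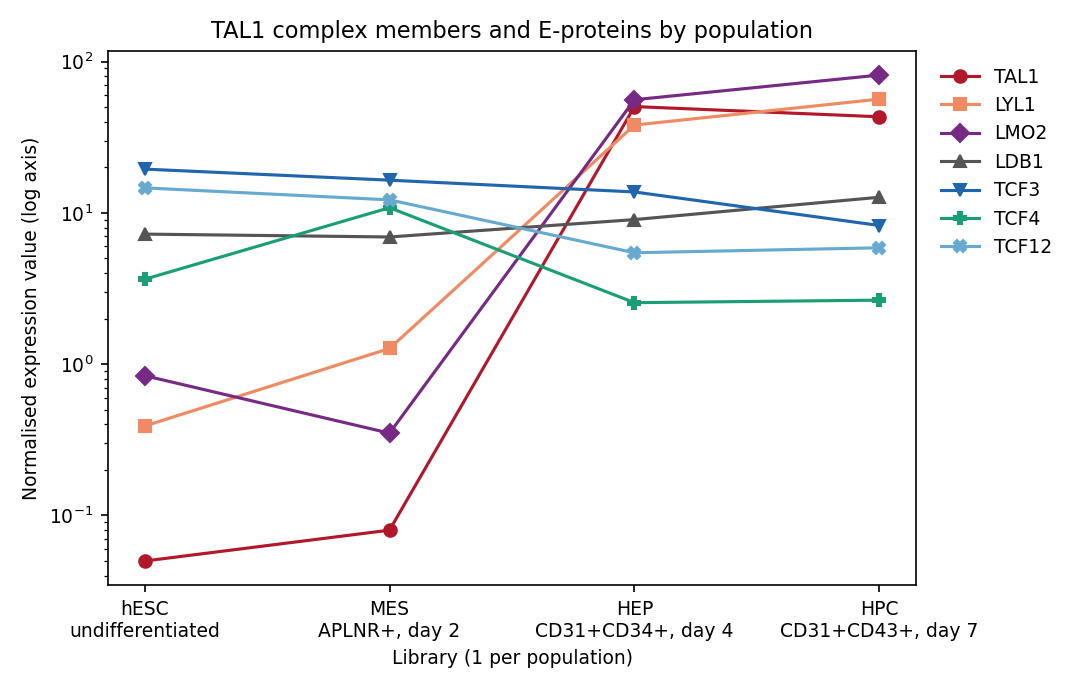
Normalised expression value (log axis) of each of the 7 members in the 4 libraries, 1 point per library, lines joining the points of a gene. TAL1, LYL1 and LMO2 lie at or below 1.27 in hESC and MES and at or above 38.1 in HEP and HPC, whereas LDB1 and the E-proteins stay between 2.55 and 19.5 throughout.

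From MES to HEP, the step under VEGF and bFGF, 3 of the 7 members were higher (TAL1, LYL1 and LMO2), against 3.31% of all genes. The difference in log2 was 5.57 for TAL1, 5.399 for LMO2 and 4.10 for LYL1, which placed them 6th, 9th and 30th among the 17630 genes ranked from the highest. LDB1 went from 6.93 to 9.03 (0.34) and TCF3 from 16.5 to 13.8 (-0.24), neither past the size for a call. TCF4 and TCF12 were lower (2 of 7, against 13.9% of all genes). The median over the members was 0.34 and that over all genes -0.11. The endothelial marker sum was also higher on this step (87.3 and 634), with 6 of 8 markers called higher. Of 6 smooth muscle and mesenchyme markers 3 were higher (ACTA2, COL1A1 and COL3A1) and 1 lower (TAGLN), with sums of 584 and 321. Of 6 primitive streak and mesoderm markers 4 were lower, with sums of 543 and 258. APLNR, the sort antigen of MES, made up most of the first of these sums and nearly all of the second (344 in MES and 250 in HEP). The part of these markers in the members' differences was not tested.

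On the steps before and after, few members were called, as few of all genes were. From hESC to MES only TCF4 was called (1 of 7 higher, against 3.79% of all genes, and 0 of 7 lower, against 3.7%). TCF4 was 2.97 times as high in MES as in hESC. LYL1 stood at 0.39 and 1.27 (log2 difference 0.71), LMO2 at 0.84 and 0.35 (-0.45) and TAL1 at 0.05 and 0.08 (0.04). From HEP to HPC 0 of 7 were higher and 0 lower, against 3.01% and 3.57% of all genes. LYL1 (0.56), LMO2 (0.53) and LDB1 (0.45) stood higher in HPC and TCF3 (-0.67) and TAL1 (-0.22) lower, all short of a call, while 5 of 8 erythroid and 4 of 6 megakaryocyte markers were called higher. The medians over the members were -0.06 from hESC to MES and 0.09 from HEP to HPC, beside -0.02 and 0.00 over all genes. With the GC trend divided out the counts were the same, 1 higher from hESC to MES (4.07% of all genes) and 0 lower (2.17%), and 0 in each direction from HEP to HPC (2.67% and 3.5%).

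Over the whole course, from hESC to HPC, TAL1, LYL1 and LMO2 were higher by 5.39, 5.37 and 5.49 on the log2 scale, 3 of 7 against 4.66% of all genes. TCF3 and TCF12 were lower, 2 of 7 against 15.8%. This comparison shares its libraries with the successive ones and is no independent support for them. The median over the members was 0.73 and that over all genes -0.14.

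**Figure D2:**
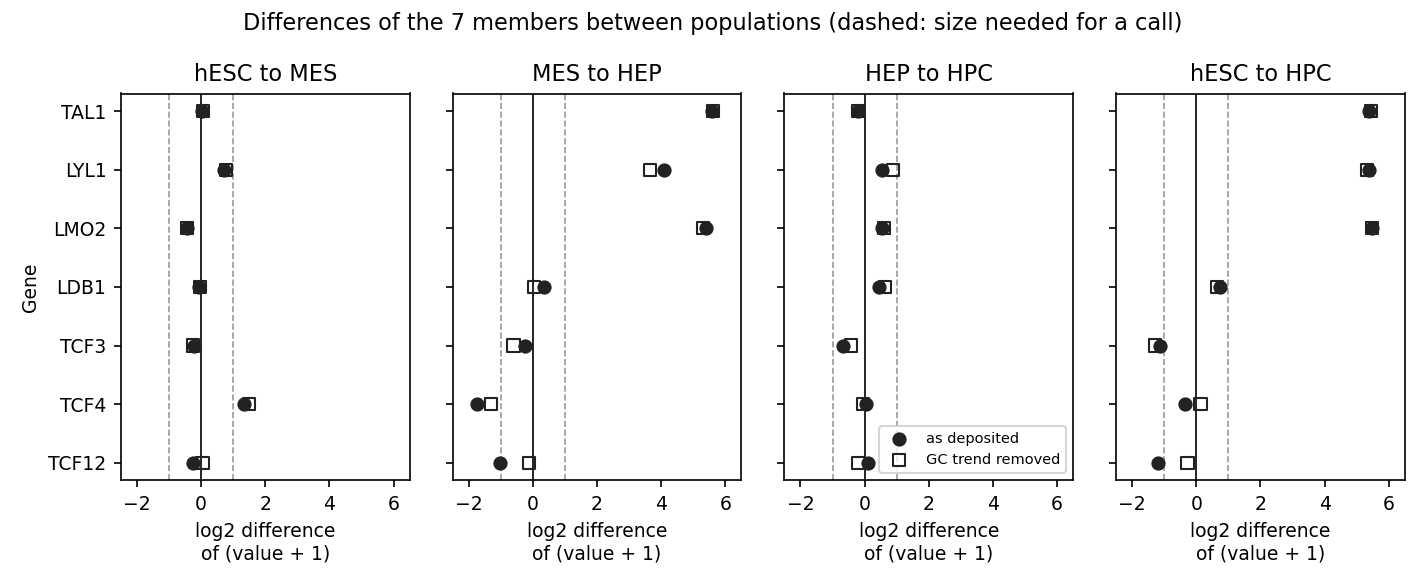
Log2 difference of (value + 1) for each member in the 4 comparisons, as deposited (filled circles) and with each library's GC trend divided out (open squares), with dashed lines at the size needed for a call. TAL1, LYL1 and LMO2 lie between 3.66 and 5.62 from MES to HEP in both versions, whereas TCF12 moves from -1.03 to -0.12.

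The promoters of TAL1 and LYL1 are shown because these related genes went up at the same step, with that of LDB1 as a member that was present throughout. Windows run from 250 bases before to 50 bases after a transcript start, 5′ to 3′ on the gene's strand, from RefSeq on GRCh38.p14. They lie at chr1:47232286-47232585 for TAL1 (the more upstream of its 2 windows), chr19:13102809-13103108 for LYL1 and chr10:102114953-102115252 for LDB1, all on the minus strand. Capitals mark the letters GATAAG or their reverse complement CTTATC, a form of the element that GATA factors recognise.
TAL1: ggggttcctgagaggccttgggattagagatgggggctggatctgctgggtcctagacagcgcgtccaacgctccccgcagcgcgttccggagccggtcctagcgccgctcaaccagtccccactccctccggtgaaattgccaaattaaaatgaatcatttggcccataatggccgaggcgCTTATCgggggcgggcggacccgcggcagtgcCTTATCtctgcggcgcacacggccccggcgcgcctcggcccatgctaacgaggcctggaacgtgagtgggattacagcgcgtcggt
LYL1: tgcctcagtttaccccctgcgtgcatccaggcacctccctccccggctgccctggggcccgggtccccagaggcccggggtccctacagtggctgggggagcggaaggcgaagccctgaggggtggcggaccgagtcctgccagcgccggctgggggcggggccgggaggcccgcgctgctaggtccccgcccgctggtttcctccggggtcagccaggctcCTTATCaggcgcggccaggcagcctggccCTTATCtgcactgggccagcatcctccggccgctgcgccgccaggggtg
LDB1: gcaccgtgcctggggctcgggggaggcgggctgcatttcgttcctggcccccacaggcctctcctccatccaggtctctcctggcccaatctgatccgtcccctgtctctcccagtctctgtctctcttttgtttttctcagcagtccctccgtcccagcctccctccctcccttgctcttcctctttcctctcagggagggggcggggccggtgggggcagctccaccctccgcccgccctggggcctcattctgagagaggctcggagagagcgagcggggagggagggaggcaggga

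The TAL1 window holds GATAAG on either strand 2 times, starting at bases 183 and 215 of the window, and the LYL1 window 2 times, at bases 223 and 252, with the transcript start at base 251. The second TAL1 window holds it 0 times, so TAL1 has it in 1 of its 2. LDB1 and TCF3 hold it 0 times in their single windows, TCF12 in none of its 5 windows and TCF4 in 1 of its 10. Over all 34943 windows of this length, 6.37% held GATAAG at least once on either strand and 0.358% at least 2 times. The E-box letters CANNTG, which read the same on both strands, occurred 1 time in the TAL1 window and 0 times in those of LYL1 and LDB1, and 68.7% of all windows held them. The 2 motifs share no letters at these matches. GATAAG was chosen after the windows had been read, and a match is a description of letters, not a site in use. LMO2 had no entry in the table.

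None of the genes next to TAL1, LYL1 and LMO2 was called higher from MES to HEP, as few of all genes were. By RefSeq order the nearest tabulated protein-coding genes are PDZK1IP1 and STIL for TAL1 (chromosome 1), NFIX and TRMT1 for LYL1 (chromosome 19) and FBXO3 and CAPRIN1 for LMO2 (chromosome 11), and 0 of these 6 were higher in HEP while 2 were lower (STIL and FBXO3). PDZK1IP1 was listed at 0 in hESC, MES and HEP and stood at 0.17 in HPC, and NFIX never passed 0.26. STIL, which encodes a centriole protein, stood at 4.91, 11.1, 2.34 and 2.42, and TRMT1, which encodes a tRNA methyltransferase, at 35.1, 22.5, 17.2 and 21.5. Of the 8 genes flanking the other 4 members, 1 was higher from MES to HEP (HPS6, beside LDB1) and 2 lower (NOLC1, beside LDB1, and TXNL1, beside TCF4). Over all genes 3.31% were higher and 13.9% lower on this step, and counts over so few genes cannot be told from these shares.

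Among the 8174 genes at 5 or more in any library, the 5 with the 4-library patterns nearest to each member were read. The distance was Euclidean, on log2(value + 1) centred on each gene's mean, and is a description over 4 libraries. It used the values as deposited, with the GC trend not divided out. For TAL1, the endothelial receptor tyrosine kinase gene TIE1 came first (distance 0.48, with values of 0.91, 0.63, 60.0 and 54.7), LMO2 came next (0.64), and then CLEC11A (0.81), the adhesion molecule ICAM2 (0.89) and the endothelial junction gene ESAM (0.92). LYL1 took the 9th place (1.04). For LMO2 the nearest were ICAM2 (0.54), TIE1 (0.64), TAL1 (0.64), the scavenger receptor STAB1 (0.65) and CLEC11A (0.68). For LYL1 they were the collagen COL3A1 (0.57), STAB1 (0.72), ESAM (0.75), GAD1 (0.80) and the tyrosine kinase BTK (0.86), with TAL1 in place 10 and LMO2 in place 12.

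LDB1, the self-associating core to which LMO2 binds, varied least of the 7 in the values as deposited. It stood at 7.24, 6.93, 9.03 and 12.7 in hESC, MES, HEP and HPC, a ratio of 1.83 between the highest and the lowest library. With the GC trend divided out TCF12 varied less (7.46 to 9.52) than LDB1 (7.60 to 12.8). LDB1 was not called in any comparison of the values as deposited, and from hESC to HPC it was higher by 0.73. With median-of-ratios scaling this difference was 1.19 and with upper quartile scaling 1.27, which would be called. PPRC1 overlaps LDB1 in RefSeq and stood at 8.09, 7.60, 7.56 and 5.49. Without a stated strand setting, reads from the shared stretch cannot be told apart. LMO2 per LDB1 went from 0.116 and 0.0505 in hESC and MES to 6.20 and 6.42 in HEP and HPC. The patterns nearest to LDB1 were those of PIGS (distance 0.04), RGS19 (0.05), KMT5C (0.06), ARL2BP (0.06) and HADHA (0.07).

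The 3 E-protein genes stood at 3.64 or more in hESC and MES, where TAL1 and LYL1 were low. TCF3 stood at 19.5, 16.5, 13.8 and 8.25 in hESC, MES, HEP and HPC. TCF12 stood at 14.6, 12.2, 5.45 and 5.88. TCF4 followed another course, 3.64, 10.8, 2.55 and 2.65. TCF3 was highest of the 3 in every library, TCF12 came next, and TCF4 came close to TCF12 in MES alone. With the GC trend divided out TCF3 stayed highest, while TCF4 and TCF12 both stood at 9.52 in MES. TCF3 and TCF12 then stood at 8.25 and 7.46 in HPC.

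TCF4 was highest in MES, 2.97 times its hESC value, 4.24 times its HEP value and 4.08 times its HPC value. It was called higher from hESC to MES (log2 difference 1.35) and lower from MES to HEP (-1.74). Over the scalings tried, with the GC trend divided out included, these differences ranged from 1.35 to 1.56 and from -1.74 to -1.30, so the values in MES stayed highest. The antisense gene TCF4-AS1 overlaps TCF4 in RefSeq, and without a stated strand setting their reads cannot be told apart. The nearest patterns to TCF4 were those of NFIL3 (distance 0.22), a gene whose symbol a spreadsheet had turned into a date (0.22), CMTM7 (0.22), VAMP7 (0.23) and AFF4 (0.24).

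The lower values of TCF12 in HEP and HPC went with the GC content of its transcripts. That content is 45.4%, the lowest of the 7 members, and 503 genes within 1 percentage point of it had a median log2 difference of -1.02 from MES to HEP (quartiles -1.52 and -0.52), beside -1.03 for TCF12. With the GC trend divided out TCF12 stood at 9.23, 9.52, 8.64 and 7.46 in hESC, MES, HEP and HPC, and its difference from MES to HEP was -0.12. TCF4, at 48.3% GC, lay below its 514 neighbours in GC content (-1.74 beside a median of -0.60, quartiles -1.10 and -0.14). TAL1 and LMO2, at 53.0% and 55.7%, had neighbours with medians of -0.09 and 0.13, and LYL1, at 69.6%, had 16 neighbours with a median of 0.30. With the trend divided out the 3 were still higher from MES to HEP, by 5.62, 5.31 and 3.66 for TAL1, LMO2 and LYL1, 3 of 7 against 3.66% of all genes. TCF4 was then the 1 member that was lower, against 4.97%.

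**Figure D3:**
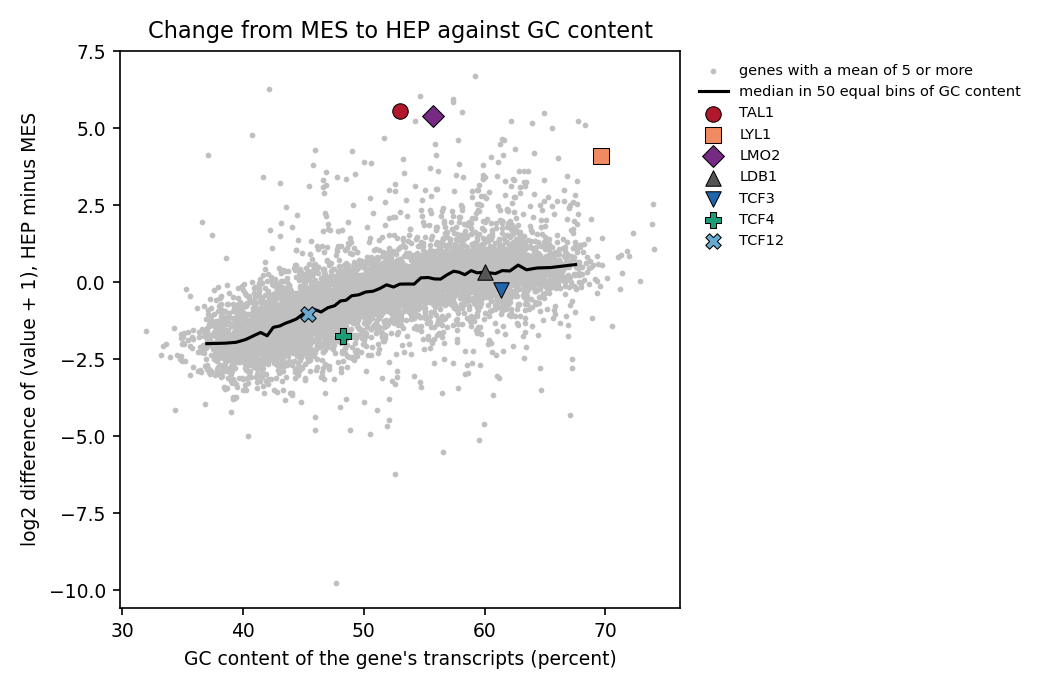
Log2 difference of (value + 1) from MES to HEP against the GC content of transcripts, for 6366 genes with a mean of 5 or more (grey), their median in 50 bins (black line) and the 7 members (coloured). TCF12 and LDB1 lie near the line, TCF4 lies below it, and TAL1, LMO2 and LYL1 lie far above it.

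TCF3, at 61.4% GC, lay below its 449 neighbours in GC content from hESC to HPC (-1.15 beside a median of 0.18, quartiles -0.51 and 0.78). From hESC to HPC it was lower by 1.15 on the log2 scale as deposited and by 1.30 with the GC trend divided out, where 1 of 7 members was lower, against 6.63% of all genes, and 3 of 7 higher, against 6.36%. With median-of-ratios, upper quartile or common-total scaling neither TCF3 nor TCF12 passed the size for a call in this comparison. From MES to HEP the sign for TCF3 depended on the scaling, with differences from -0.60 to 0.26. The nearest patterns to TCF3 were HIST4H4 (distance 0.12), DHX33 (0.13), ZNF48 (0.14), SEPW1 (0.14) and C1orf198 (0.14). Those nearest to TCF12 were EWSR1 (0.03), WDR33 (0.05), ABHD17B (0.05), PIK3R4 (0.06) and YY1 (0.07). These distances are on the values as deposited, where the course of TCF12 went with its GC content.

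Because TAL1 and LYL1 act only as pairs with E-proteins, the summed levels were set side by side within each library. In hESC, MES, HEP and HPC the 3 E-protein genes summed to 37.7, 39.5, 21.8 and 16.8, and TAL1 and LYL1 to 0.44, 1.35, 88.5 and 99.7. TAL1 and LYL1 together therefore stood at 0.0117 and 0.0342 of the E-protein sum in the first 2 libraries and at 4.07 and 5.94 times it in the last 2. With the GC trend divided out these ratios were 0.0144, 0.0413, 3.50 and 5.37. They compare messenger RNA levels of different genes and say nothing of protein.

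The make-up of the E-protein sum also differed between libraries. TCF3 made up 51.6%, 41.7%, 63.2% and 49.2% in hESC, MES, HEP and HPC, TCF12 38.8%, 30.9%, 25.1% and 35.0%, and TCF4 9.64%, 27.4%, 11.7% and 15.8%. The high share of TCF4 in MES was 25.7% with the GC trend divided out, and stayed the highest of the 4. The high share of TCF3 in HEP was not kept, since it was then 49.0% in HEP beside 64.5% in hESC.

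ID1 to ID4 encode helix-loop-helix proteins without a DNA-binding region that take up E-proteins and so limit pairs such as TAL1 with TCF3. ID1 stood at 116, 356, 523 and 100.2 in hESC, MES, HEP and HPC, ID3 at 128, 200.5, 350 and 83.8, ID2 at 7.96, 75.5, 64.9 and 28.3, and ID4 at 1.03, 13.6, 3.77 and 1.54. From hESC to MES, under activin A and BMP4, 3 of these 4 were higher (ID1, ID2 and ID4; median 2.23), and from HEP to HPC 3 of 4 were lower (ID1, ID2 and ID3; median -1.61), beside 3.79% of all genes higher on the first step and 3.57% lower on the last. From HEP to HPC all 4 were lower with the GC trend divided out (ID4 -1.13), against 3.5% of all genes. ID4 also passed with upper quartile (-1.02) and common-total scaling (-1.12). ID4 was lower from MES to HEP (1 of 4, against 13.9% of all genes), but not with the GC trend divided out (-0.96). ID3 passed the size for a call from MES to HEP only with the 3 library scalings (1.13 with median-of-ratios scaling, 0.80 as deposited). ID1 differed by 0.55 on this step as deposited, and upper quartile scaling shifted the median log2 ratio by 0.53. Its call with that scaling is not given here. The 4 genes summed to 6.72 times the E-protein sum in hESC, 16.4 times in MES, 43.3 times in HEP and 12.7 times in HPC, so HEP, where TAL1 was highest, had also the highest inhibitor ratio. With the GC trend divided out the order was the same, at 7.68, 18.6, 35.9 and 11.4.

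**Figure D4:**
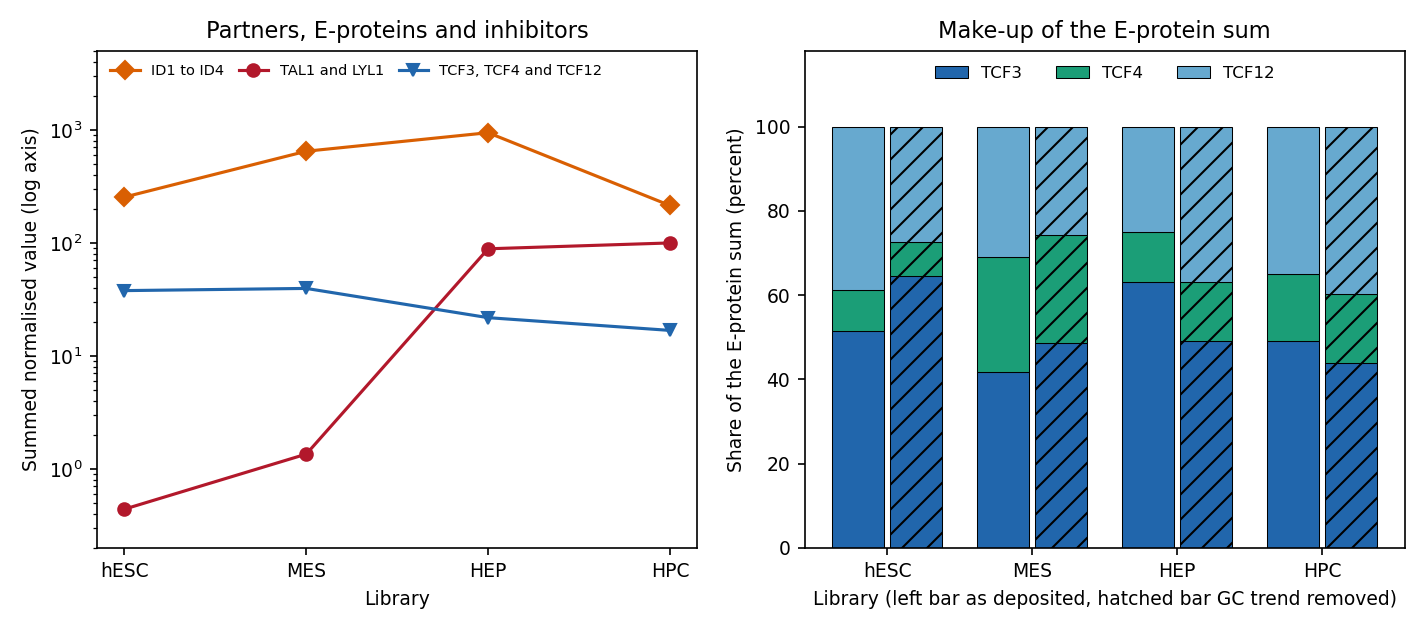
Left, summed normalised values (log axis) of ID1 to ID4, of TAL1 and LYL1 and of the 3 E-protein genes in each library, and right, the share of each E-protein gene in their sum as deposited (plain bars) and with the GC trend divided out (hatched bars). TAL1 and LYL1 pass the E-proteins between MES (1.35 against 39.5) and HEP (88.5 against 21.8), and TCF4 has its largest share in MES.

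Other class II bHLH genes also pair with E-proteins, and a different set was present in MES. Of 45 listed, 36 had a row and 7 reached 1 or more in any library. MESP1, which marks the earliest cardiovascular mesoderm, stood at 0.12, 65.9, 1.73 and 1.13 in hESC, MES, HEP and HPC, its relative MESP2 at 0.35, 18.7, 0.56 and 0.36, and HAND1, a factor of lateral and extraembryonic mesoderm, at 0.07, 47.1, 17.4 and 1.16. These 3 of 36 were higher from hESC to MES, with TCF15 lower (5.64 to 1.09). The same 3 were lower from MES to HEP, where TAL1 and LYL1 were higher. Over all genes 3.79% were higher and 3.7% lower from hESC to MES, and 13.9% were lower from MES to HEP. HAND1 was lower again from HEP to HPC. With upper quartile scaling its difference from MES to HEP was -0.88, short of a call. TAL2, the nearest relative of TAL1 and LYL1, never exceeded 0.27.

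The GATA factors that complete the complex were first called on different steps. GATA2, the GATA factor of early progenitors, stood at 0.07, 3.36, 25.9 and 52.6 in hESC, MES, HEP and HPC. It was called higher from MES to HEP (log2 difference 2.62), as TAL1, LMO2 and LYL1 were. From hESC to MES it had already differed by 2.03, uncalled since 3.36 lies below the minimum of 5. With the GC trend divided out GATA2 differed by 2.16 on that step and by 2.15 from MES to HEP. From HEP to HPC its difference was 0.997, just short of a call, and 1.32 with the GC trend divided out. GATA1, which drives red cell and megakaryocyte genes, stood at 0.02, 0.61 and 41.5 in hESC, HEP and HPC and was listed at 0 in MES, and was called first from HEP to HPC (4.72). GATA3 reached 1.89 in MES and was below 1 elsewhere. In HEP, TAL1, LYL1 and LMO2 thus stood at 38.1 or more while GATA1 was at 0.61.

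The other genes that act with TAL1, LYL1, LMO2 and GATA2 on shared blood enhancers, ERG, FLI1 and RUNX1, stood lower than these 4 in HEP and HPC. FLI1 stood at 0.14, 0.31, 10.3 and 22.0, ERG at 0.57, a listed 0, 6.46 and 2.64, and RUNX1 at a listed 0, 0.45, 2.83 and 2.43. ERG, FLI1 and GATA2 (3 of 4) were higher from MES to HEP, against 3.31% of all genes. The median over the 4 was 2.76, beside -0.11 over all genes. RUNX1, required for blood cells to leave endothelium, did not reach 5 in any library. From HEP to HPC ERG was lower (-1.04) and FLI1 higher (1.03), the latter not with the GC trend divided out (0.74) or with common-total scaling (0.85).

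Relatives of LMO2 and LDB1 and the SSBP genes, whose proteins protect LDB1 from breakdown, varied separately. SSBP4 stood at 4.62, 8.45, 36.1 and 24.6. It was the 1 of 7 listed genes that was higher from MES to HEP (1.97), against 3.31% of all genes. SSBP2 (1.55 to 2.39) and SSBP3 (4.93 to 8.46) were not called. LDB2, the paralog of LDB1, stood at 8.58, 27.0, 21.1 and 8.37, higher from hESC to MES (1.55) and lower from HEP to HPC (-1.24). With the GC trend divided out LDB2 was highest in HEP (5.06, 19.3, 36.7 and 11.4). LMO4, another LIM-only adaptor that binds LDB1, stood at 6.87, 3.71, 2.68 and 12.8, and was higher from HEP to HPC (1.91). LMO2 per LMO4 was 0.122, 0.0943, 20.9 and 6.37, or 0.188, 0.123, 13.1 and 5.11 with the GC trend divided out. The other 2 LMO genes never passed 2.30.

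Of 8 co-repressor genes, 0 were higher and 2 lower from MES to HEP (KDM1A and HDAC2; median -0.36, or 0.09 with the GC trend divided out), where 13.9% of all genes were lower and genes at 5 or more in either library had a median of -0.39. HDAC2 and SIN3A (-1.08, and -0.98 as deposited) were the 2 called lower once the GC trend was divided out. The histone demethylase KDM1A stood at 89.4, 73.3, 31.9 and 41.7 in hESC, MES, HEP and HPC and the deacetylase HDAC2 at 12.2, 9.84, 1.5 and 2.19. The call for KDM1A was lost with each other scaling (-0.94 with common-total scaling, -0.96 with the GC trend divided out), and HDAC2 kept its call with each (-2.02 to -1.47). CBFA2T3, the co-repressor most closely tied to TAL1 in red cell precursors, was listed at 0 in hESC and MES and stood at 0.18 in HEP and 2.47 in HPC, far below TAL1 itself.

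Genes that TAL1 and its partners are known to bind or need in blood cells and vessels were called from MES to HEP or, more of them, from HEP to HPC. Of 13, 4 were higher from MES to HEP (GFI1B, KLF1, NFE2 and CDH5), 0 lower, and 5 were higher from HEP to HPC (ALAS2, GFI1B, KLF1, MYB and NFE2) with 1 lower (CDH5). Over all genes 3.31% were higher and 13.9% lower from MES to HEP, and 3.01% and 3.57% from HEP to HPC. The medians over the 11 at 1 or more in any library were 0.97 and 1.41, beside -0.11 and 0.00 over all genes. CDH5, which encodes the endothelial VE-cadherin, stood at 0.33, 0.14, 73.5 and 25.1 and was highest in HEP, as TAL1 was. The erythroid factor KLF1 stood at 0.07, 1.25, 9.54 and 33.0, the repressor GFI1B at 0.03, 0.05, 7.28 and 21.0 and the megakaryocyte and red cell factor NFE2 at 0.45, 0.71, 5.50 and 89.7. ALAS2, the red cell enzyme of heme synthesis, stood at 0.06, 1.32, 0.73 and 40.3. MYB, a factor of blood progenitors, stood at 0.70, 1.15, 2.20 and 17.7. The stem cell factor receptor gene KIT stayed between 1.43 and 3.37.

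**Figure D5:**
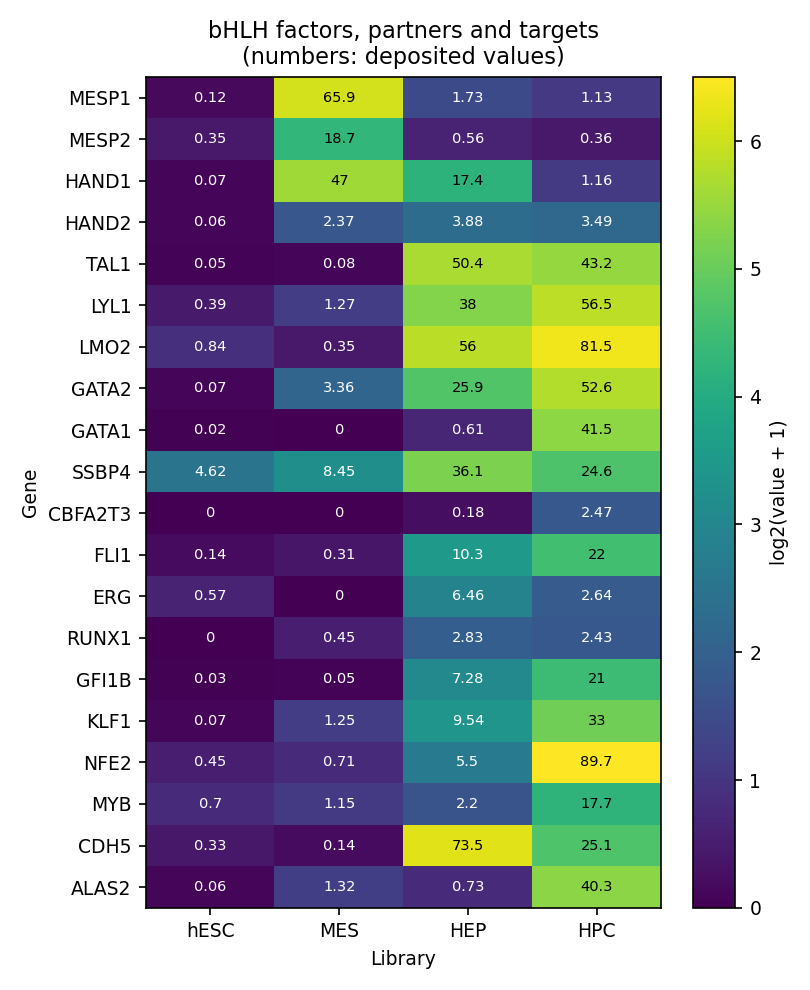
Deposited values (numbers) and log2(value + 1) (colour) of 20 genes in the 4 libraries: class II bHLH genes, complex partners and target genes. MESP1, MESP2 and HAND1 are highest in MES, TAL1 and CDH5 in HEP, and LMO2, LYL1, GATA1, GATA2, KLF1, NFE2 and ALAS2 in HPC.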

How the data were processed

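The deposited data were 4 tables, 1 per library, of a normalised signal per gene to 2 decimals. The submitters' processing notes name RSEM, Bowtie and BWA, and the build hg19. Their versions and roles, the annotation, the strand setting and whether the signal is FPKM or TPM were not given in the sources used here. Both are per transcript length, and values fell with length (Spearman rho -0.23 to -0.18 across genes). Of 17634 rows, 4 with repeated names were left out.

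Differences used a pseudocount of 1 and calls a 2-fold size with a higher value of at least 5, with Python 3.11.15 and pandas 2.3.3. GC content was the median over protein-coding transcripts of GENCODE 29, matched for 17428 genes (98.9%). The GC trend was each library's median log2 deviation in 50 bins of GC (genes averaging at least 5), smoothed over 5 bins. Median-of-ratios scaling used genes averaging at least 5 with no 0. The procedure was tested on simulated data. Members and gene lists were chosen with earlier results of these data known. All 7 members were named, with listed genes that were called and a fixed set of partners, and the 5 nearest patterns. KIT, RUNX1, TAL2, TNNT2, TBX5 and MYH6 were added after their values were seen. Of the members, 6 had a RefSeq promoter window.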

Additional observations from a re-analysis of the deposited data

How the results depend on the processing

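No paired analysis was possible because each population was 1 library, and none could be left out. The 28 log2 differences of the members were recomputed under 9 alternatives, 252 values in all: the call was unchanged in 225, lost in 25, gained in 2 and reversed in 0. TAL1, LYL1 and LMO2 kept their calls from MES to HEP and from hESC to HPC under all 9. The 1 member higher from hESC to MES (TCF4) became 0 with a pseudocount of 5, a minimum of 20 or a size of 4-fold. The 2 members lower from MES to HEP became 1 with a pseudocount of 5, each of the 3 other scalings or the GC trend removed, and 0 with a minimum of 20 or 4-fold. The 2 lower from hESC to HPC became 1 with the GC trend removed and 0 with a pseudocount of 5, a minimum of 20, 4-fold or each of the 3 other scalings. Median-of-ratios, upper quartile and common-total scaling and removal of the GC trend shifted the median log2 ratio by 0.33, 0.53, 0.24 and 0.20 from MES to HEP and by 0.48, 0.57, 0.28 and 0.30 from hESC to HPC. Among related genes, LDB2 went from -0.03 from hESC to HPC to 1.04 with the GC trend removed. Depth is unknown, so no limit can be set on values near 0.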

Other observations

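Some cardiac muscle genes, a group that TAL1 is known to hold down in the endothelium of mouse embryos, were present in HEP beside TAL1, and others were not. Of 8 listed, 3 were higher from hESC to MES, 2 were higher (NKX2-5 and MYL4, or NKX2-5 and ACTC1 with the GC trend divided out) and 1 lower from MES to HEP, and 1 was higher and 4 lower from HEP to HPC. Over all genes the shares higher and lower were 3.79% and 3.7%, 3.31% and 13.9%, and 3.01% and 3.57% on these steps. The cardiac factor NKX2-5 stood at 0.03, 3.37, 19.3 and 1.46 in hESC, MES, HEP and HPC, TBX20 at 0.05, 3.10, 6.43 and 1.78 and the cardiac actin ACTC1 at 2.35, 49.9, 54.6 and 1.71. The atrial myosin light chain MYL7 stood at 0.65, 69.4, 14.1 and 0.55. NKX2-5, TBX20, ACTC1 and MYL7 were all lower in HPC than in HEP. MYL4, a light chain of atrial muscle and fetal tissues, went the other way, from 40.7 to 213. TAL1 stood at 50.4 in HEP and 43.2 in HPC, and its part in these differences was not tested. TNNT2 and TBX5 were listed at 0 in HEP and HPC, and MYH6 stood at 0.11 in HEP. Whether cells with TAL1 and cells with cardiac genes were the same cells cannot be told from bulk libraries.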
